A study of Mus musculus with 198 samples.

Results

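The data described here are the counts of 10 genes that dividing cells use to copy and separate their DNA, read in 9 mouse tissues. They were taken by gene symbol, Mki67, Top2a, Ccna2, Ccnb1, Cdk1, Pcna, Mcm2, Mcm5, Tacc3 and Atad2, from a table of 56332 genes, and each symbol was found once. The study gave C57BL/6 mice an antibody against PAPP-A or a control antibody for 17 weeks and then sequenced RNA of whole tissues. PAPP-A is a secreted protease that cleaves certain IGF binding proteins and thereby frees the growth factor. The 10 mice given the antibody (aPAPPA below) were 5 males and 5 females, and the 12 control mice were 6 males and 6 females, with no age in the labels used here. Every mouse gave all 9 tissues, so each tissue has 10 libraries from aPAPPA mice and 12 from control mice, all from animals of the same strain with no transgene or deletion named.

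A cell that prepares to divide first loads the MCM helicase onto its DNA, copies the genome in S phase and then assembles a spindle and divides. The genes for these steps are switched on in waves: E2F factors drive the genes of DNA replication, and a later wave, bound by the MuvB complex and its partners, drives the genes of G2 and mitosis. In an adult mouse such cells are frequent in the marrow, where blood cells form, in the spleen, and in epidermis and growing hair follicles, and are rare in heart muscle, kidney and resting liver. In whole tissue, fewer dividing cells and less RNA per cell cannot be told apart.

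Depth set the limits of what follows. Libraries held between 4138419 and 19517950 counts (median 8950258), but 9 very abundant features, mitochondrial ribosomal RNA genes among them, took a median of 87.43% of them, which left between 33377 and 4694597 counts for all other genes (median 1099966.5). Levels below are in CPM, counts scaled to a common size of the whole library with TMM factors, so they run low. For 6 libraries, called in doubt below, either few genes were counted or the markers that define the named tissue were low against its other libraries. They were the heart libraries of aPAPPA male 56 and control female 22, gonadal fat of aPAPPA male 58, lung of control male 68, subscapular fat of control female 20 and skin of aPAPPA female 36, where 308 genes reached 10 counts. Values without them stand beside many of the results that they change.

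The members fall into 2 groups by role. In replication, Mcm2 (GENCODE vM21, GRCm38, chr6:88883474-88898780, minus strand) and Mcm5 (chr8:75109569-75128439, plus strand) encode subunits of the MCM helicase. Pcna (chr2:132249162-132253314, minus strand) encodes the sliding clamp of the DNA polymerases, and Atad2 (chr15:58094044-58135082, minus strand) encodes a bromodomain protein of chromatin that is an E2F target in human cells. In G2 and mitosis, Cdk1 (chr10:69335146-69352938, minus strand) encodes the kinase that triggers mitosis. Ccna2 (chr3:36564865-36572150, minus strand) and Ccnb1 (chr13:100778650-100786570, minus strand) encode its partners cyclin A2 and cyclin B1. Top2a (chr11:98992943-99024189, minus strand) encodes the topoisomerase that untangles chromosomes, Mki67 (chr7:135689784-135716361, minus strand) the Ki-67 protein that coats mitotic chromosomes, and Tacc3 (chr5:33658128-33678995, plus strand) a protein of the spindle. The gene models of Ccna2 and Tacc3 overlap a gene on the other strand, Exosc9 and Tmem129, and whether counting used the strand is not given in the sources used here. Pcna has 2 processed copies in the table, Pcna-ps2 with 768 counts and Pcna-ps1 with 6 over all libraries, beside 11720 for Pcna, so its reads could have been split.

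The promoters of 4 members are shown as examples, Top2a, Mki67 and Cdk1 of the mitosis genes and Mcm5 of the replication genes. Those of Ccnb1, Tacc3, Mcm2 and Pcna were read but are not printed. Whether the matches bear on the levels of these genes over the tissues was not tested. The windows hold the 250 bases before the start site, from RefSeq (GRCm38.p6), which has 8 of the 10 members; Ccna2 and Atad2 are not among them. Capitals mark matches on either strand to TTTGAA (the CHR of G2 and mitosis genes), CCAAT (the binding site of NF-Y) and the E2F sites TTTCGCGC, TTTGGCGC and TTCCCGCC; in these windows CCAAT and TTTGAA share no bases, while the first pair of E2F sites overlaps in Mcm5.
Top2a, chr11:99024190-99024439, minus strand: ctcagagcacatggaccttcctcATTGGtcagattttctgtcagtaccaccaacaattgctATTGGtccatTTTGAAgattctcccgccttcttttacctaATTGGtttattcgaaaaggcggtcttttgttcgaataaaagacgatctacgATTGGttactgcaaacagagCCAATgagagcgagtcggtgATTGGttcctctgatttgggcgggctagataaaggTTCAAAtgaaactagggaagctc
Mki67, chr7:135716380-135716629, minus strand: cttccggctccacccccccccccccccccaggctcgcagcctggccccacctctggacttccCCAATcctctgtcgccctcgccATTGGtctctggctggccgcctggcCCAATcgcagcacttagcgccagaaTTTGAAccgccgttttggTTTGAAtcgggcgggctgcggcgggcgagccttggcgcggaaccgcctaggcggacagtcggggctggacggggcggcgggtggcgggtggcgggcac
Cdk1, chr10:69352913-69353162, minus strand: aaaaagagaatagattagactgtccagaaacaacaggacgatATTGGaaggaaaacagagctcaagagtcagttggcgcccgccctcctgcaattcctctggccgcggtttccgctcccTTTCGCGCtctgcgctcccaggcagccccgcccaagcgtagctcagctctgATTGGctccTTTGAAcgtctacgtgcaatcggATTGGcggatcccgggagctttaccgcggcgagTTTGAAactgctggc
Mcm5, chr8:75109259-75109508, plus strand: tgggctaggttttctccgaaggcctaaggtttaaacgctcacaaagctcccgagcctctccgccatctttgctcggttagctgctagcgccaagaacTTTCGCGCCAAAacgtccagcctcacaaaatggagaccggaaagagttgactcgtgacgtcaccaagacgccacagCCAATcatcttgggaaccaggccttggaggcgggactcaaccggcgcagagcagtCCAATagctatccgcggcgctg
TTTGAA was found in 4 of the 8 windows (Cdk1, Mcm2, Mki67 and Top2a), against 16.0% of 32851 promoter windows of the same length. CCAAT was found in 7 of the 8, all but Tacc3, against 33.8% of all windows. TTTCGCGC stood in Cdk1 and Mcm5 (0.3% of all windows), TTTGGCGC in Mcm5 (0.4%) and TTCCCGCC in none of the 8 (1.9%). The Pcna window held 1 match, a CCAAT 87 bases before the start. The matches nearest the start were TTTGAA 15 bases before it in Cdk1 and 23 bases before it in Top2a, and CCAAT 22 bases before it in Mcm5. A match is a run of letters and not a measured binding site.

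In control mice the members stood highest in bone marrow and lowest in heart. The median over the 10 members of their mean log2 CPM was 2.92 in bone marrow, 2.55 in spleen, 1.99 in skin and 1.56 in gonadal fat. It was 0.43 in subscapular fat, 0.35 in lung, 0.05 in kidney, -0.07 in liver and -0.47 in heart. The first 4 tissues lay within 1.36 of marrow, and the other 5 lay between 2.49 and 3.38 below it on the log2 scale. The spread of this median over the 12 control mice was smallest in spleen (SD 0.24) and lung (SD 0.25) and widest in gonadal fat (SD 1.19) and subscapular fat (SD 0.73). Without the libraries in doubt, lung (0.29) and subscapular fat (0.27) changed places.

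**Figure D1:**
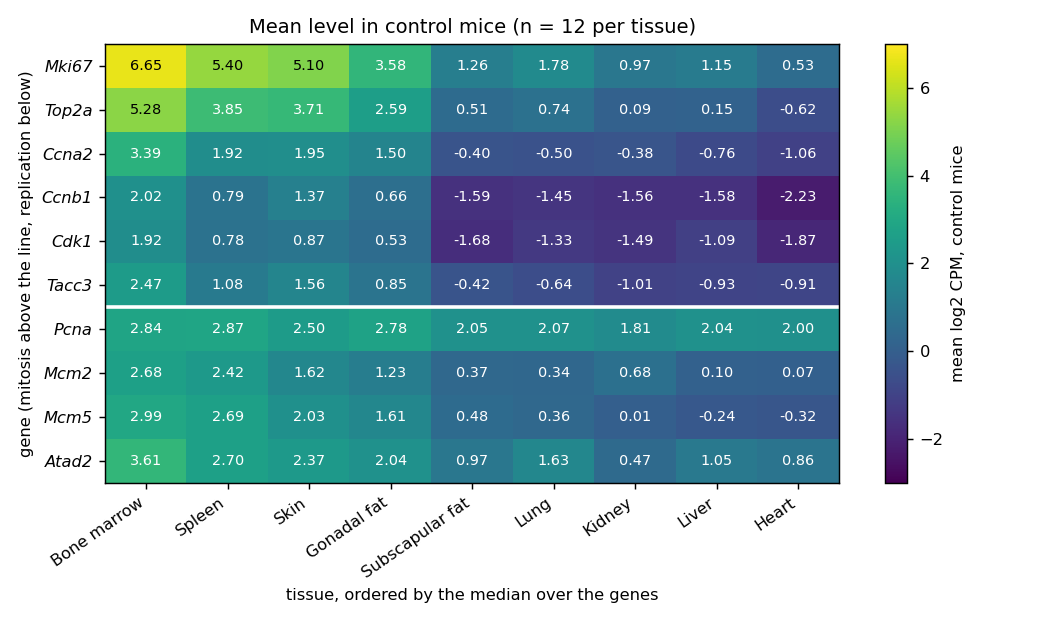
Mean log2 CPM of each member (rows, mitosis genes above the white line and replication genes below) in each tissue (columns) over 12 control mice per tissue. Mki67 spans 6.65 in bone marrow to 0.53 in heart, while Pcna stays between 2.87 and 1.81.

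The order was also read in the aPAPPA mice and in each sex of the same control mice. Bone marrow and spleen came first in each reading, and the tissues below them partly changed places. In aPAPPA mice bone marrow (2.91) and spleen (2.42) again came first, followed by gonadal fat (1.76), skin (1.31), heart (0.23), lung (0.22), subscapular fat (-0.20), kidney (-0.34) and liver (-0.83). Without the libraries in doubt, heart stood at -0.28 and skin at 1.72 in aPAPPA mice. In control males gonadal fat (2.15) came before skin (1.95), and in control females skin (2.03) came before gonadal fat (0.97).

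The G2 and mitosis genes carried most of this span. Mki67 had the widest one on the log2 CPM scale used here, 6.12 between control marrow (6.65 ± 0.13 log2 CPM, SD, n = 12) and control heart (0.53 ± 0.58). Top2a spanned 5.90, Ccna2 4.45, Ccnb1 4.25, Cdk1 3.79 and Tacc3 3.47, the last with its lowest mean in kidney. In the quiet tissues these genes were near the limit of detection. Ccnb1 had 2 counts over the 12 control hearts, with 10 libraries at 0, and Cdk1 had 14 counts, with 5 libraries at 0. In control marrow the same genes had 587 and 537 counts and no library at 0. This scale includes a prior count of 2, a small count added before the log, which narrows the spans of genes with few counts. The ranking of the spans depends on it. Mean CPM per kilobase of exon, without a prior count, was 0.931 in control marrow and 0.00579 in control heart for Ccnb1. For Mki67 it was 9.97 and 0.135, a smaller ratio.

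The replication genes spanned less. Mcm5 spanned 3.31, Atad2 3.14 and Mcm2 2.61 on the log2 scale, and Pcna only 1.06, between spleen (2.87 ± 0.27 log2 CPM, SD, n = 12) and kidney (1.81 ± 0.40). The mean over the 6 mitosis genes was 3.62 log2 CPM in control marrow and -1.03 in control heart, and that over the 4 replication genes 3.03 in marrow and 0.65 in heart. The difference between the 2 means was 0.59 ± 0.15 in marrow (SD over 12 mice), 0.30 ± 0.44 in skin, -0.30 ± 0.82 in gonadal fat, -0.36 ± 0.39 in spleen and between -1.68 and -1.25 in the other 5 tissues. These differences are read between tissues, since the genes differ in length. Per kilobase of exon, Mki67 led in control marrow with 9.97 CPM, before Top2a (4.35), Pcna (3.04) and Ccna2 (2.57), and Cdk1 came last (0.737). In control heart Pcna led with 1.70 CPM per kilobase, and the other 9 members lay between 0.00579 (Ccnb1) and 0.175 (Mcm5).

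**Figure D2:**
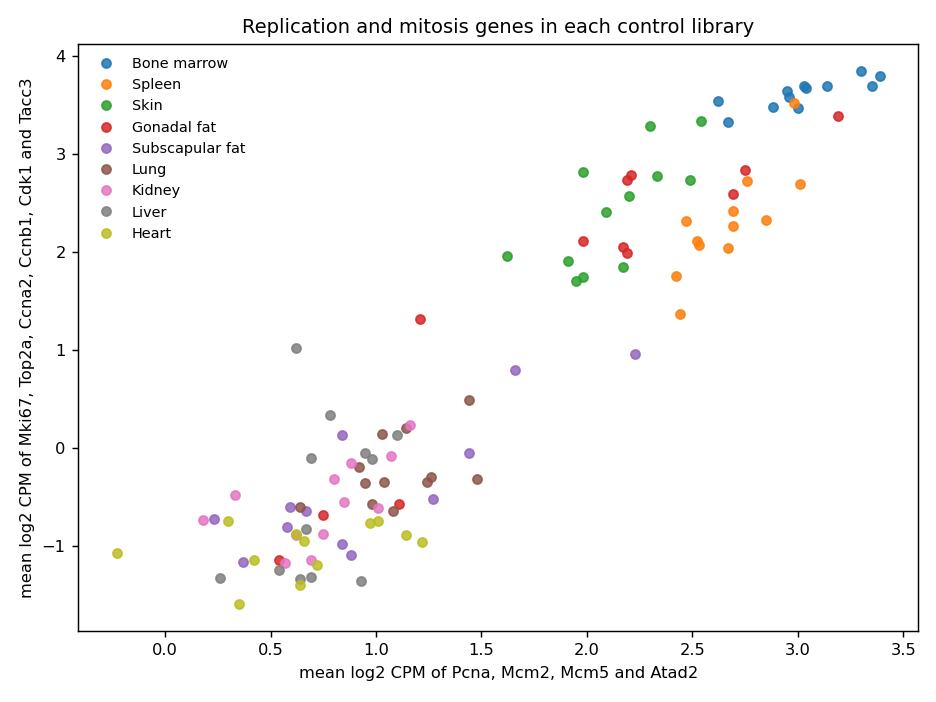
Each point is 1 control library; the x axis gives the mean log2 CPM of the 4 replication genes and the y axis that of the 6 mitosis genes, coloured by tissue. Marrow libraries lie at the top right (tissue means 3.03 and 3.62), and most libraries of heart, kidney, liver, lung and subscapular fat form the lower group. Gonadal fat of control females 4, 11 and 22 lies in that group too. Subscapular fat of control male 71 and control female 20 lies above most of it.

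Neighbouring tissues were compared in the order given above, which came from these same members in the same control libraries. The pairs and the direction of each step were thus picked from the tested values. The adjusted p values of members at these steps are therefore no separate support for the order. Between spleen and skin 3 of the 10 members passed, beside 56.7% of the 17968 genes tested. Ccnb1 was lower in spleen than in skin (edgeR quasi-likelihood test, log2 fold change -0.74 ± 0.33 SE, adjusted p = 0.0467), while Mcm2 (0.69 ± 0.22, adjusted p = 0.0049 by the same edgeR test) and Mcm5 (0.65 ± 0.25, adjusted p = 0.0176) were higher in spleen. The call for Ccnb1 was lost with the mouse as a block (-0.65 ± 0.32, edgeR adjusted p = 0.0828), by DESeq2, with RLE factors, without the low-count filter and without the abundant features. Pcna, with an estimate of 0.33 ± 0.18 that did not pass, was higher in spleen by DESeq2 (adjusted p = 0.0415), and by edgeR with RLE factors (adjusted p = 0.0455) or without the abundant features (0.0441).

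Between marrow and spleen the mitosis genes separated and the replication genes, apart from Atad2, did not. All 6 mitosis genes were higher in marrow, from Cdk1 (1.10 ± 0.32, edgeR adjusted p = 0.00207) to Top2a (1.39 ± 0.32, edgeR adjusted p = 0.000108), and so was Atad2 (0.93 ± 0.19, adjusted p = 1.58e-05). The estimates were 0.29 ± 0.21 for Mcm2, 0.30 ± 0.23 for Mcm5 and 0.02 ± 0.17 for Pcna, none of which passed. These 7 of 10 members stand beside 56.9% of all genes tested that differed in either direction and 25.6% that were higher in marrow. Whether the fold changes of the 2 groups of members differ from each other was not tested.

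The widest step between neighbours lay between the 2 fat depots. The members' own levels set this pair, so the direction of its tests was partly fixed beforehand. All 10 members were higher in gonadal than in subscapular fat, where 31.7% of all genes tested differed and 13.3% were higher in gonadal fat. Ccnb1 (3.33 ± 0.42, edgeR adjusted p = 2.17e-10) and Cdk1 (3.15 ± 0.41, adjusted p = 6.75e-10) had the widest estimates and Pcna (0.82 ± 0.17, adjusted p = 6.65e-05) the narrowest. Mki67 had 0.489, 20.1 and 43.9 CPM (lowest, median and highest) in control gonadal fat, against 0.429, 1.97 and 11.1 CPM in control subscapular fat. The ranges overlapped, because 3 of the 12 control gonadal fat libraries were as low as subscapular fat.

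The remaining neighbours differed in few members. Skin stood above gonadal fat in Mki67 (0.90 ± 0.35, edgeR adjusted p = 0.0199, and 0.0647 without the low-count filter) and below it in Pcna (-0.39 ± 0.17, edgeR adjusted p = 0.0431), beside 63.9% of all genes that differed. Subscapular fat over lung had no passing member by edgeR, beside 50.1% of all genes; 0 members had an unadjusted p under 0.05. Atad2, named after its values were seen, was lower in subscapular fat than in lung by DESeq2 (adjusted p = 0.0232), and by edgeR with the mouse as a block (-0.48 ± 0.20, adjusted p = 0.0435), with RLE factors, and without the abundant features or the libraries in doubt. Lung was above kidney in Atad2 (1.15 ± 0.22, edgeR adjusted p = 4.83e-06), beside 58.3% of all genes. Kidney was above liver in Mcm2 (0.66 ± 0.28, edgeR adjusted p = 0.0456) and below it in Atad2 (-0.60 ± 0.25, adjusted p = 0.0393), beside 47.9%. Both of these calls were lost without the filter on low counts, and that of Mcm2 also with RLE factors or without the abundant features. Liver was above heart in Mki67 (0.96 ± 0.43), Top2a (1.52 ± 0.50), Ccnb1 (3.15 ± 0.87) and Cdk1 (1.67 ± 0.60), at edgeR adjusted p from 0.00117 to 0.0488 and beside 57.9% of all genes. Mki67 did not pass with the mouse as a block (0.88 ± 0.42, edgeR adjusted p = 0.0711) or without the low-count filter. The 4 replication genes did not pass between liver and heart. For these steps the filter on low counts was run over the control libraries of all 9 tissues. Top2a, Ccnb1 and Cdk1 did not pass it in the treatment fits of liver or heart alone. They passed it here through tissues where they stood higher, so their calls between liver and heart rest on very few counts. Ccnb1 had at most 5 counts in a control liver and at most 1 in a control heart.

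Mice of 1 tissue also differed among themselves, most of all in gonadal fat. There Mki67 had 1.24 CPM in aPAPPA female 36 and 1.51, 1.39 and 0.489 CPM in control females 4, 22 and 11, while the other 18 libraries lay between 15.1 and 43.9 CPM. Top2a had 0.579 CPM in aPAPPA female 36 and 0.670, 0.528 and 0.326 CPM in control females 4, 22 and 11, against at least 4.2 CPM elsewhere. Pcna in these libraries had 2.73, 3.85, 4.09 and 3.75 CPM, within reach of control male 37 at 3.63 CPM. Control male 68 was the highest library for all 10 members. Macrophage markers (Adgre1, C1qa, C1qb, C1qc, Csf1r and Cd68) summed to 77.0 CPM in aPAPPA female 36 and to 92.0, 72.7 and 112 CPM in control females 4, 22 and 11, and to 334 CPM in control male 68. A list chosen after the values were seen, of genes of inflamed tissue (Timp1, Lcn2, Spp1, Arg1, Chil3 and Prg4), summed to 2.48 CPM in aPAPPA female 36, to 4.02, 1.39 and 2.44 CPM in those control females and to between 6.11 and 333 CPM in the other 18. Of 7 germ cell and gonad genes, a list also chosen after the values were seen, 5 had no count in gonadal fat of either sex, and the sum of all 7 reached at most 0.179 CPM. The part of macrophages or of inflammation in these differences was not tested.

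Single mice led in other tissues too. In spleen, control female 22 was the highest library for 7 of the 10 members, with Mki67 at 106 CPM, and its erythroid markers summed to 134 CPM against 6.78 to 56.7 CPM in the other 21 spleens. In skin, control male 71 was the highest for 6 members, with Mki67 at 71 CPM. Its hair matrix genes Msx2 (6.54 CPM) and Lef1 (8.80 CPM) were also the highest among the skins. Both belong to a list of 7 keratinocyte and hair follicle markers, whose other genes are not given singly. The mean of that list was 4.47 log2 CPM in this library, against a median of 3.57 over the skins. In subscapular fat, control female 20 was the highest for 6 members, and its B cell markers summed to 116 CPM against at most 3.73 CPM in the other 21. aPAPPA male 56 led the aPAPPA mice there, with Mki67 at 10.6 CPM, B cell markers at 0.388 CPM and thymocyte genes at 0 CPM. The part of erythroid, hair follicle or lymphoid cells in these values was not tested.

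**Figure D3:**
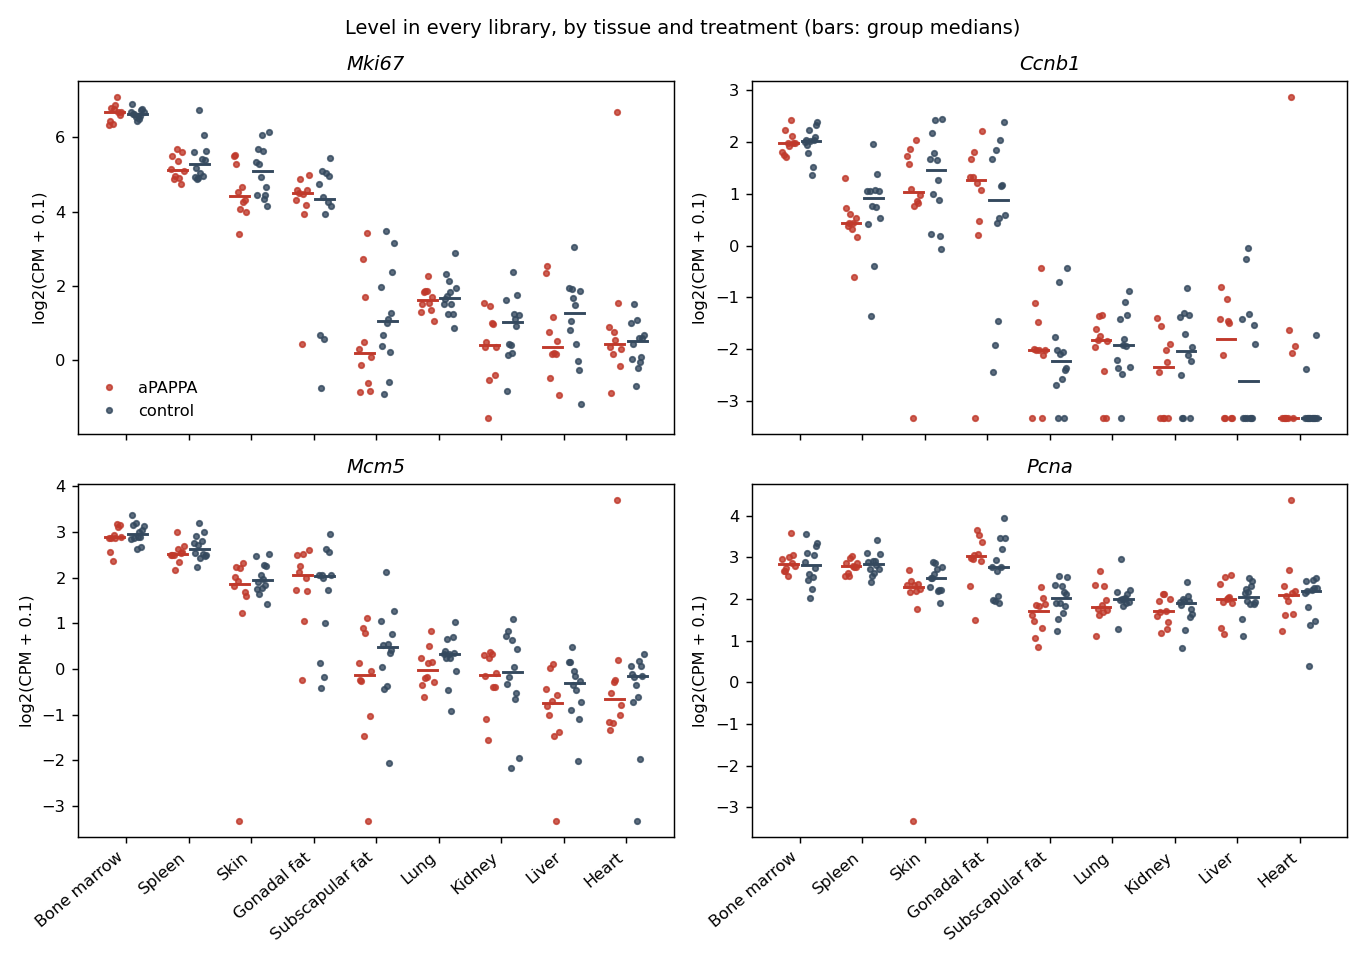
Level of 4 members, as log2 of CPM plus 0.1, in every library by tissue, aPAPPA mice left of control mice, with bars at the group medians. The groups overlap in every panel and tissue; aPAPPA male 56 stands alone above the other hearts, and 4 low libraries set gonadal fat apart for Mki67 and Ccnb1.

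The treatment comparison asks whether blocking PAPP-A altered these genes. By edgeR 0 of the 10 members passed in any tissue, and DESeq2 and limma-voom also called 0. Over all genes the same fits called 0.00724% in bone marrow (1 gene of 13812) and 0% in the other 8 tissues. Unadjusted p was under 0.05 for 4 members in skin, 2 in heart, 1 in liver, 1 in subscapular fat and 0 in the other 5 tissues. A missed threshold does not show equal levels, and the intervals differ by tissue. The members are read in the same libraries and went together over them, so estimates of a shared sign in a tissue are not separate results.

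Bone marrow gave the tightest estimates. Mki67 had 80.9, 102 and 136 CPM (lowest, median and highest) in aPAPPA marrow, against 87.1, 100 and 120 CPM in control marrow, and Pcna 5.80, 7.04 and 11.9 CPM in aPAPPA marrow, against 3.96, 6.97 and 11.7 CPM in control marrow. The groups overlapped almost fully. The edgeR estimates of the 10 members lay between -0.13 ± 0.10 (Mcm5) and 0.03 ± 0.10 (Atad2) on the log2 scale. Approximate 95% intervals over the members reached no further than -0.32 and 0.27.

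In spleen 8 of the 10 estimates were below 0 and none passed. Ccnb1 had 0.560, 1.25 and 2.37 CPM in aPAPPA spleen, against 0.288, 1.79 and 3.82 CPM in control spleen (edgeR -0.46 ± 0.23, adjusted p = 0.952). Atad2 went the other way, with 5.75, 7.46 and 9.97 CPM in aPAPPA spleen, against 4.84, 6.28 and 8.36 CPM in control spleen (edgeR 0.21 ± 0.11, adjusted p = 0.952). Both pairs of ranges overlapped widely. Erythroid markers summed to 7.91, 12.8 and 26.6 CPM in aPAPPA spleen, against 6.78, 19.9 and 134 CPM in control spleen, and their part in the members' estimates was not tested.

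In skin all 10 estimates were below 0, and none passed after adjustment. Tacc3 had 0, 1.53 and 3.30 CPM in aPAPPA skin, against 1.54, 2.85 and 4.17 CPM in control skin (edgeR -0.78 ± 0.22, p = 0.00167, adjusted p = 1). Atad2 had 0, 3.42 and 4.41 CPM in aPAPPA skin, against 3.21, 5.24 and 6.95 CPM in control skin (edgeR -0.53 ± 0.15, p = 0.002, adjusted p = 1). Ccna2 (-0.64 ± 0.24) and Mki67 (-0.54 ± 0.25) had an unadjusted p under 0.05 as well (edgeR adjusted p = 1 for both). The zeros came from aPAPPA female 36, the library with few genes, where Mki67 had 3 counts and the other 9 members none. Without it 3 members had an unadjusted p under 0.05, Mki67 being at -0.50 ± 0.25 (p = 0.057, edgeR adjusted p = 1) and Ccna2 at -0.63 ± 0.24, while Tacc3 was at -0.77 ± 0.22 and Atad2 at -0.51 ± 0.14, the Atad2 range was 3.02 to 4.41 CPM in the 9 other aPAPPA skins, and the groups still overlapped. The median of the 10 estimates was -0.42, beside -0.032 over all 11254 genes tested in skin. These estimates come from the same libraries and are not 10 separate results. Keratinocyte and hair follicle markers summed to 211, 1280 and 2160 CPM in aPAPPA skin, against 896, 1360 and 2190 CPM in control skin, all 7 of them with counts in both groups, and their part was not tested.

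Gonadal fat had the widest spread between mice. Mki67 had 1.24, 22.4 and 31.5 CPM in aPAPPA gonadal fat, against 0.489, 20.1 and 43.9 CPM in control gonadal fat (edgeR 0.09 ± 0.50, adjusted p = 1, approximate 95% interval -0.88 to 1.07). The groups overlapped almost fully. The 10 estimates lay between -0.03 and 0.21, and without aPAPPA male 58 between 0.02 and 0.20. In subscapular fat 6 members were tested, and all 6 estimates were below 0. Pcna had 1.69, 3.21 and 4.78 CPM in aPAPPA subscapular fat, against 2.24, 3.96 and 5.79 CPM in control subscapular fat (edgeR -0.41 ± 0.18, p = 0.0287, adjusted p = 1). The ranges overlapped. Without control female 20 Pcna was at -0.31 ± 0.16. Mki67 was at -0.43 ± 0.62 with that library and at 0.03 ± 0.59 without it.

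Lung, kidney and liver held few counts. In lung 6 members were tested, with estimates between -0.30 ± 0.26 (Top2a) and -0.03 ± 0.21 (Mcm2), and between -0.17 ± 0.19 (Atad2) and 0.05 ± 0.17 (Mki67) without control male 68. In kidney 5 were tested, with Mki67 at 0.241, 1.24 and 2.82 CPM in aPAPPA kidney, against 0.464, 1.93 and 5.12 CPM in control kidney (edgeR -0.45 ± 0.31, adjusted p = 1). In liver only Mki67, Pcna and Atad2 were tested. Atad2 had 0.527, 0.991 and 2.29 CPM in aPAPPA liver, against 1.40, 1.78 and 2.96 CPM in control liver (edgeR -0.70 ± 0.24, p = 0.00694, adjusted p = 1). The 2 groups overlapped in these tissues as well.

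In heart the pooled estimates were set by 1 library. Mki67 had 102 CPM in aPAPPA male 56 and 0.443 to 2.78 CPM in the 9 other aPAPPA hearts, against 0.517 to 2.75 CPM in the control hearts. With all libraries the edgeR estimate was 2.55 ± 0.96 (p = 0.0141, adjusted p = 1), and without that mouse it was 0.07 ± 0.29. Mcm5 was at 1.29 ± 0.63 with all libraries and at -0.29 ± 0.33 without mouse 56. In that library cardiomyocyte markers summed to 199 CPM, and to between 2360 and 6650 CPM in the other aPAPPA hearts. A list of 6 thymocyte genes chosen after the values were seen (Rag1, Dntt, Cd8b1, Cd4, Themis and Prss16) summed to 575 CPM there, and to at most 10.6 CPM in the other aPAPPA hearts.

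**Figure D4:**
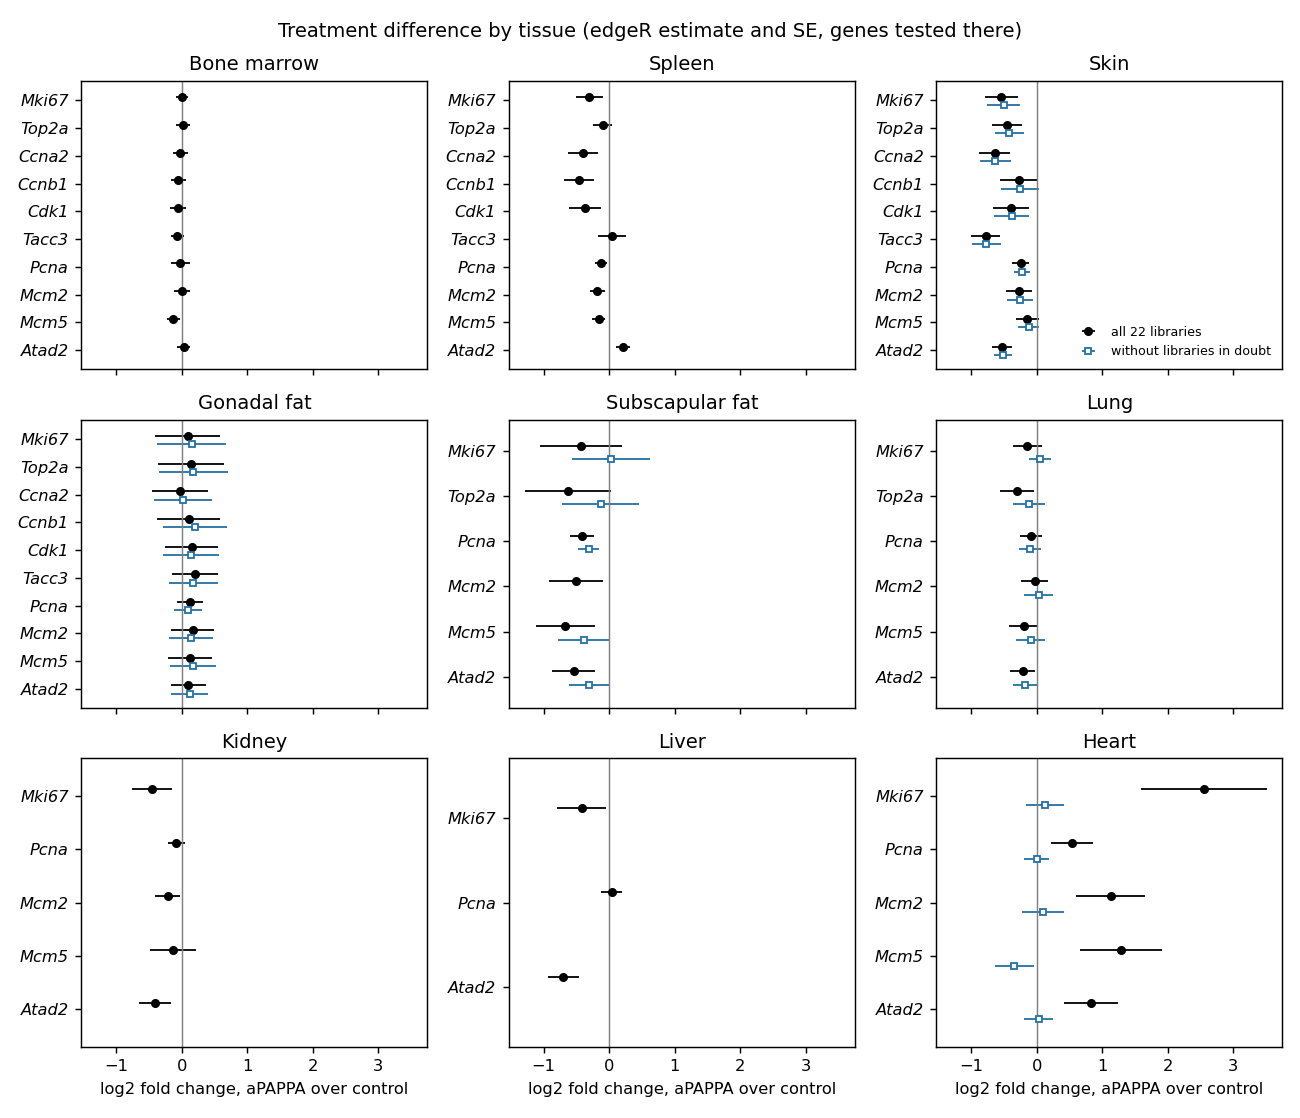
Log2 fold change of aPAPPA over control with its SE (x axis) for each member tested in the tissue; black circles use all 22 libraries, and open squares leave out the libraries in doubt where the tissue has one. The skin estimates all lie below 0 in both sets, and the heart estimates above 0.5 in the full set lie between -0.34 and 0.13 without those libraries.

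Averaging each mouse over its 9 tissues left 3 members that pass the count filter everywhere. Atad2 was at -0.21 ± 0.08 (limma, p = 0.0139, adjusted p = 0.77), Mki67 at -0.12 ± 0.15 and Pcna at -0.09 ± 0.07 (adjusted p 0.791 and 0.77). None passed, and 0% of 7511 genes did, with 326 at an unadjusted p under 0.05. The median over all these genes was -0.053. The aPAPPA over control difference was also compared between the sexes in each tissue, and 0 members passed; 0% of all genes passed in any tissue. Unadjusted p was under 0.05 for 5 members in heart, 1 in bone marrow (Mcm5, 0.43 ± 0.18), 1 in kidney (Atad2, -1.05 ± 0.46) and 1 in spleen (Tacc3, 0.96 ± 0.38). In bone marrow all 10 estimates were above 0 (median 0.30, beside 0.006 over all genes), and in gonadal fat all 10 were below 0 (median -0.70, beside 0.009). Within a tissue the 10 estimates share their libraries, so their common sign is not 10 separate results. Mki67 in heart had the widest estimate, 4.89 ± 1.47 (male minus female difference, edgeR adjusted p = 0.765), and 0.82 ± 0.58 without the libraries in doubt, where 0 members in heart had an unadjusted p under 0.05.

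Sex, male over female with treatment as a covariate, gave 2 passing members, in liver and in gonadal fat. Mki67 in liver had 0.340, 1.05 and 3.57 CPM in the 11 males, against 0.611, 3.08 and 8.23 CPM in the 11 females, and was lower in males (edgeR -1.33 ± 0.36, adjusted p = 0.00844). The ranges overlapped, and 27% of the 9988 genes tested in liver differed by sex. These values rest on few reads, with a median of 6 counts in males and 12 in females. When each mouse was left out in turn Mki67 passed in the 17 fits that tested it; in the 5 fits without mouse 3, 18, 22, 37 or 68 it fell below the filter on low counts and had no test. Macrophage markers summed to 26.4, 32.7 and 42.3 CPM in male livers, against 23.4, 39.4 and 56.1 CPM in female livers, with all 6 genes counted in both sexes, and their part was not tested. Pcna and Atad2 in liver were at 0.12 ± 0.16 and -0.08 ± 0.23.

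Pcna in gonadal fat had 3.63, 10.3 and 15.3 CPM in males, against 2.73, 6.25 and 8.22 CPM in females, and was higher in males (edgeR 0.77 ± 0.20, adjusted p = 0.0133). It passed in all 22 fits that left out 1 mouse, with an adjusted p between 0.00424 and 0.031. The other 9 estimates in this depot were above 0 as well, from 0.43 to 0.66, and did not pass, beside 14.4% of all genes that differed by sex. The median of the 10 edgeR estimates was 0.54, and 1 member had an unadjusted p under 0.05. By limma-voom the median was 1.02 and 9 members had an unadjusted p under 0.05, with 1 passing after adjustment. Macrophage markers summed to 120, 242 and 361 CPM in male gonadal fat, against 72.7, 150 and 184 CPM in female gonadal fat, all 6 with counts in both. Their part in the Pcna difference was not tested.

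**Figure D5:**
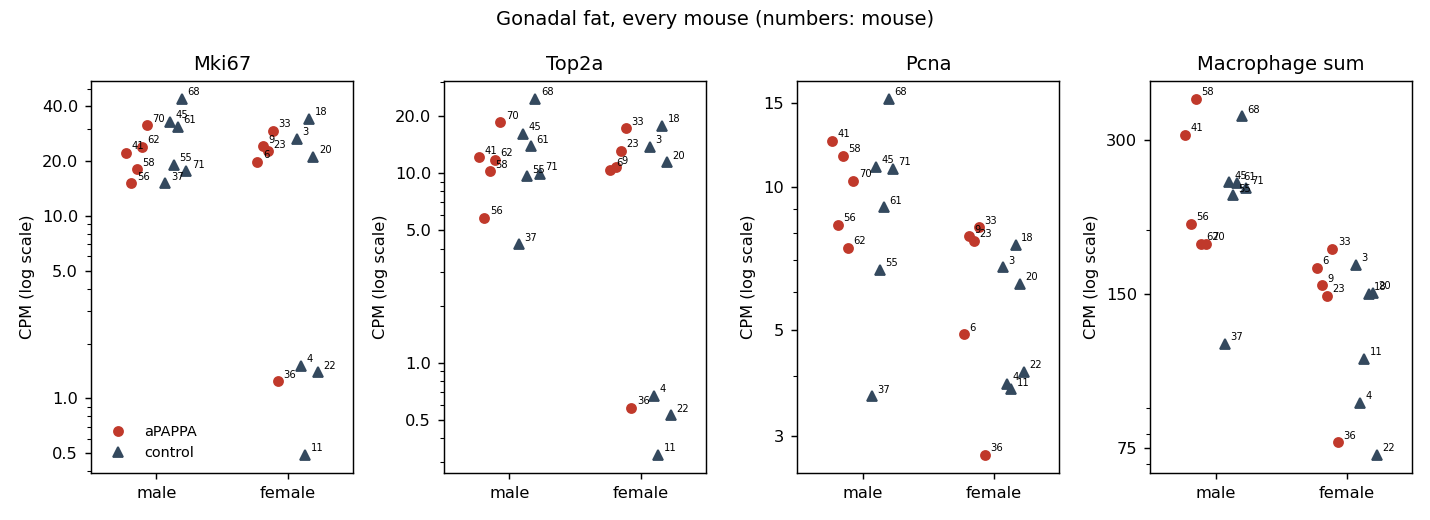
CPM on a log axis in gonadal fat of every mouse for Mki67, Top2a, Pcna and the sum of 6 macrophage markers, males left of females, with aPAPPA mice as circles and control mice as triangles. Females 36, 4, 22 and 11 lie at or below 1.51 CPM for Mki67, and no male lies below 15.1.

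In the other tissues no member passed by sex. By edgeR 0 members passed in bone marrow (0.659% of all genes), spleen (3.99%), skin (0.338%), subscapular fat (15.4%), lung (0.107%), kidney (24.9%) and heart (0.203%). Unadjusted p was under 0.05 for 3 members in heart, 1 in kidney (Mki67, 0.68 ± 0.30) and 1 in skin (Mki67, -0.54 ± 0.25), and for 0 in the other 4 tissues. DESeq2, limma-voom and the fit without a filter called 0 in these tissues too. The 3 heart estimates, Pcna at 0.76 ± 0.32, Mcm5 at 1.48 ± 0.65 and Atad2 at 0.97 ± 0.42, were 0.30 ± 0.18, 0.29 ± 0.32 and 0.31 ± 0.21 without aPAPPA male 56.

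A wider list of 84 cell cycle genes outside the members was read in the same fits. By treatment 0 of its tested genes passed in any tissue by edgeR; 2 in bone marrow, 4 in spleen, 11 in skin, 1 in subscapular fat, 4 in lung and 11 in heart had an unadjusted p under 0.05. Without the libraries in doubt it was 11 in skin, 1 in subscapular fat, 2 in lung and 2 in heart. In skin 54 of 65 tested genes had an estimate below 0 (median -0.18, beside -0.032 over all genes; 55 of 67 without aPAPPA female 36), and in spleen 65 of 75 (median -0.15, beside 0.002). In bone marrow it was 42 of 79 (median -0.01, beside -0.007). The genes of this list are read in the same libraries too, so such counts of signs are not counts of separate results.

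By sex, genes of the wider list passed in 5 tissues, at shares given beside those of all genes. In liver 8 of 25 tested genes passed (32%, beside 27% of all genes), 2 higher and 6 lower in males, and in kidney 5 of 33 (15.2%, beside 24.9%). In gonadal fat 4 of 76 passed (5.26%, beside 14.4%), in subscapular fat 4 of 39 (10.3%, beside 15.4%) and in spleen 3 of 75 (4%, beside 3.99%). These shares show nothing particular to the list, and the genes below are given as single values. The median estimate was -0.30 in liver (beside -0.028 over all genes), 0.36 in gonadal fat (beside -0.008) and -0.24 in spleen (beside -0.009). Ccnd1, which encodes cyclin D1 and links growth signals to the cycle, was lower in males in liver (edgeR -1.82 ± 0.17, adjusted p = 1.58e-08) and in subscapular fat (-1.03 ± 0.27, adjusted p = 0.0185), and higher in males in spleen (0.41 ± 0.11, adjusted p = 0.0266). Ccnd3 was lower in males in gonadal fat (-0.44 ± 0.09), spleen (-0.56 ± 0.08) and subscapular fat (-0.54 ± 0.18), the last not without control female 20 (-0.47 ± 0.18, edgeR adjusted p = 0.0799). Cdkn1c, which encodes the CDK inhibitor p57, was lower in males in gonadal fat (-1.19 ± 0.29) and kidney (-0.57 ± 0.17). In liver Mcm10 (1.81 ± 0.20) and Ccng1 (0.58 ± 0.16) were higher in males, and Ccnd2 (-0.85 ± 0.18), Birc5 (-0.85 ± 0.26) and E2f8 (-0.78 ± 0.25) were lower. In kidney Ccng1 (0.61 ± 0.09) and Mcm7 (0.41 ± 0.13) were higher in males and Rrm1 (-0.41 ± 0.11) lower, and in spleen the mitotic kinase gene Plk1 was lower in males (-0.89 ± 0.19).

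Between tissues, most of the wider list differed at 2 of the 8 steps. Marrow over spleen had 64 of 83 tested genes higher and 5 lower (83.1% called, beside 56.9% of all genes; median 1.00, beside -0.087). All 6 transcription factors of the cycle were higher, E2f7 at 2.03 ± 0.15 (edgeR adjusted p = 1.49e-22) and E2f8 at 2.75 ± 0.28, as were 26 of 27 spindle genes, Kif23 at 2.40 ± 0.24 and Mad2l1 at 1.25 ± 0.13. The 5 lower genes, named here after their values were seen, were Ccnd1 (-2.67 ± 0.26), Ccnd2 (-2.14 ± 0.23), Cdkn2b, Rbl2 and Ccng1. Gonadal over subscapular fat had 63 of 83 higher and 5 lower (81.9% called, beside 31.7%; median 1.02, beside -0.058), with Cdc20 at 3.78 ± 0.48 and Hmmr at 3.78 ± 0.51 among the higher, and Cdkn1b, Rbl2, Ccng1, Ccng2 and Ube2c (-4.14 ± 0.58) lower. At the other 6 steps between 27.7% (23 genes, subscapular fat over lung) and 45.8% (38 genes, liver over heart) of the list passed, beside 47.9% to 63.9% of all genes.

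The genes whose levels went most closely with the members were histone and mitosis genes. Over the control libraries, 12 in each tissue, the 10 of 13302 genes with the highest Pearson r to the mean of the members were Hist1h1b (0.965), Hist1h3c (0.960), Cenpe (0.959), Aspm (0.958), Hist1h2bn (0.958), Dlgap5 (0.957), Kif11 (0.957), Kntc1 (0.956), Hist1h3g (0.950) and Bub1b (0.950). These points share tissues and mice, so the values describe a likeness only, and reads of near-identical histone copies could be split between them. Within the members, Top2a (0.976) and Mki67 (0.975) had the highest r with the mean of the other 9, and Mcm2 (0.838) and Pcna (0.734) the lowest of the 10.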

How the data were processed

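RNA of whole tissues was sequenced with a stranded total RNA kit, per the labels' protocols. The authors deposited whole-number counts per gene, without normalization; FastQC 0.11.5, Salmon and the mm10 build appear in the submitters' processing notes. Each library's mouse and tissue were matched to the labels, and 0 libraries differed. The members and every list were chosen with earlier results of these data known. Levels were log2 CPM with TMM factors over all libraries and a prior count of 2. Treatment, sex and their interaction were tested per tissue with edgeR 4.0.16 (R 4.3.3) quasi-likelihood tests after its filter on low counts, two-sided, with Benjamini-Hochberg adjustment over all genes and a threshold of 0.05; SE is the estimate divided by the root of F. Neighbouring tissues were tested over the control libraries with sex as a term and, as an alternative, the mouse as a block, and means over tissues with limma 3.58.1. The order that set these neighbours came from the members' levels in the same libraries. Alternatives were DESeq2 1.42.0, limma-voom, RLE factors, no filter, leaving out the 9 most abundant features (each over 0.9% of counts on average), no sex term and no libraries in doubt. Doubt about a library meant own-tissue markers over 2 log2 units under the median for that tissue, or fewer than 1000 genes with 10 counts. Members that passed the filter of a fit carry tests, also where their mean in a tissue was under 1 CPM. Some of the passing genes of the wider list, up to 4 per role group, are named. The same mice gave every tissue: deviations of libraries of 1 mouse had a mean correlation of 0.0476 over 432 pairs, against -0.00927 between other mice of the same sex. Replicates are separate animals. The test code was also run on simulated counts with known changes, with a fixed spread between libraries and no outlying mice. Genes with few counts were not among the changed ones, so that run does not cover many of the members.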

Additional observations from a re-analysis of the deposited data

Results flagged for a closer look

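Among the aPAPPA mice, 65 sets of 10 libraries (a tested member in a tissue) were checked for a highest or lowest library far from the rest; chance alone marks about 1 set in 20. In skin, aPAPPA female 36 was the lowest at 0 CPM for 9 members, Top2a, Ccna2, Ccnb1, Cdk1, Pcna, Mcm2, Mcm5, Tacc3 and Atad2, in a library with 308 genes at 10 counts or more. In heart, aPAPPA male 56 was the highest for all 5 tested members, with Mki67 at 102 CPM (next 2.78), Pcna at 20.7 (6.37), Mcm2 at 11.7 (2), Mcm5 at 12.9 (1.04) and Atad2 at 14.8 CPM (2.92).

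In gonadal fat, aPAPPA female 36 was the lowest for 6 members, with Mki67 at 1.24 CPM (next 15.1), Top2a at 0.579 (5.80), Ccna2 at 0.0828 (2.78), Ccnb1 at 0 (1.06), Mcm2 at 0.414 (next 1.96) and Tacc3 at 0.579 CPM (1.80). The 3 lowest control libraries in this depot were those of females 4, 11 and 22. aPAPPA male 56 was also the highest for Pcna in bone marrow at 11.9 CPM (next 8.2) and for Mcm2 in subscapular fat at 3.23 CPM (1.20). aPAPPA male 58 was the lowest for Atad2 in subscapular fat at 0.367 CPM (1.05).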

How the results depend on the processing

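The count of 0 passing members by treatment, by sex and treatment together and over the tissues was the same under every alternative run. The counts of passing members by sex were the same too, apart from the fits of liver that left out 1 mouse. In 5 of those 22 fits Mki67 had no test. Members at an unadjusted p under 0.05 by sex in gonadal fat were 9 by limma-voom, against 1 by edgeR. With the mouse as a replicate block, subscapular fat over lung had 1 passing member, as it had by DESeq2, with RLE size factors, without abundant features and without libraries in doubt, against 0; the block moved no other count of members between neighbours by over 1.5 times. Kidney over liver had 0 passing members without the low count filter, and 1 with RLE size factors or without abundant features, against 2. Skin over gonadal fat had 1 without the filter, against 2. In level minus marrow, heart was at -3.76 with a prior count of 0.5, against -3.38. Read in aPAPPA mice, an alternative chosen after seeing the data, heart was at -2.67, skin at -1.60 and liver at -3.74, the last also without the libraries in doubt. Leaving out each mouse in turn, also added later, gave -1.43 to -1.18 for Mki67 by sex in liver and 0.67 to 0.84 for Pcna by sex in gonadal fat. In heart, kidney, liver, lung and subscapular fat most mitosis genes had too few counts for a treatment test. The cause of each change was not tested.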
